A study of Mus musculus with 6 samples.

Results

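The coding promoters that carried a called H3K27me3 peak in every library of mouse ovarian granulosa cells (GCs) were examined. They were chosen by the peak calls themselves. Overlapping or touching peaks were merged within each of the 6 CUT&Tag libraries and then across libraries, which gave 12430 regions, and a region was kept when all 6 libraries overlapped it, when it lay within 2000 bp of the transcription start site (TSS) of a protein-coding transcript and when under 50% of its bases were soft-masked as repeats. This rule kept 690 regions of the 1131 called in all 6 libraries. Of these, 5 lay on mitochondrial DNA, which carries no histones. They were set aside after the values were seen, and the other 685 regions, at 668 of 21853 protein-coding genes (3.06%), are described here. The GCs came from 3-week-old female ICR mice, an outbred stock. All mice had received 5 IU of PMSG, a gonadotropin that stimulates follicle growth, and were injected 22 h later with cyclophosphamide (CTX, 120 mg/kg, an alkylating chemotherapeutic agent) or with PBS, the vehicle. Cells were collected 6 h after that injection, with 3 PBS and 3 CTX libraries as biological replicates, each made from the GCs of 3 mice pooled together. Where 3 values of a group follow each other, they stand in the order of its replicates. The depth recovered from the peak lists ranged from 1118 reads per Mb in CTX replicate 3 to 1957 in PBS replicate 1. CTX replicate 3 was the shallowest library and had the fewest peaks, 2916 against 4244 to 6378 in the others. The lists give no expression values, so the cell type could not be checked through its transcripts.

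H3K27me3 is the trimethylation of lysine 27 on histone H3. It is written by EZH2, the catalytic subunit of Polycomb repressive complex 2, and marks genes that are held silent. In vertebrate cells it gathers at CpG islands, stretches rich in CpG dinucleotides around start sites, above all at those of developmental regulators that the cell does not use. In CUT&Tag an antibody against the mark brings a transposase to the chromatin, which cuts the DNA there and leaves sequencing adapters.

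Windows of 200 bases at the summits of strongly marked regions show what the sequence under the signal looked like. They are shown because the start sites of most of these genes were dense in CpG while several of the strongest summits were not. Sequences are from GRCm38 (mm10), read 5′ to 3′ on the strand of the gene with the nearest coding TSS, and capitals mark CpG. The start site windows are the 200 bases before the nearest coding TSS.
Six2 summit, chr17:85690720-85690919, strand -: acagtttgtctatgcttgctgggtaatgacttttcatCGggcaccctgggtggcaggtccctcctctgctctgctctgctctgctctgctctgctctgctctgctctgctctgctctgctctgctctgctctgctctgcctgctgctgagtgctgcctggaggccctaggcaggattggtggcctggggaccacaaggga
Six2 start site, chr17:85688275-85688474, strand -: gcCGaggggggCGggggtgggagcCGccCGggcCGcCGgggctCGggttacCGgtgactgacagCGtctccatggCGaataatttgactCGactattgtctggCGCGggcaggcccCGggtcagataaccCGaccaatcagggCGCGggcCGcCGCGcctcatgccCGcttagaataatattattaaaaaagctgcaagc
Pitx1 summit, chr13:55833204-55833403, strand -: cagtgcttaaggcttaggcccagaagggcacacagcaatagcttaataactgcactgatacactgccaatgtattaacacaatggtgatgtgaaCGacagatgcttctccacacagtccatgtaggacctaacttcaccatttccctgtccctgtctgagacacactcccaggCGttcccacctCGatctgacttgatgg
Pitx1 start site, chr13:55831426-55831625, strand -: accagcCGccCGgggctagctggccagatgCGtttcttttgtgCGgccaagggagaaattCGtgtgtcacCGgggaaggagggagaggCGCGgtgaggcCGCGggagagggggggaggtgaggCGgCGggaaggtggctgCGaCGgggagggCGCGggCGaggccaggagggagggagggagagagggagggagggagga
Wnt7b summit, chr15:85578581-85578780, strand -: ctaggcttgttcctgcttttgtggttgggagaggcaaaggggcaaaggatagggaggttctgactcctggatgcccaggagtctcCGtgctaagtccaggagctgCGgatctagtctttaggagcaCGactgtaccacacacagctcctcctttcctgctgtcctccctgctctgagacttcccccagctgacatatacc
Wnt3a summit, chr11:59289972-59290171, strand -: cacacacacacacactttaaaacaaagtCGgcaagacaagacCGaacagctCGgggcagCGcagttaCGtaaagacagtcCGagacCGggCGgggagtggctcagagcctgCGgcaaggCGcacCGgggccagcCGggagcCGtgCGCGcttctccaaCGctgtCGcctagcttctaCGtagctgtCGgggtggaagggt
Tnxb summit, chr17:34672508-34672707, strand +: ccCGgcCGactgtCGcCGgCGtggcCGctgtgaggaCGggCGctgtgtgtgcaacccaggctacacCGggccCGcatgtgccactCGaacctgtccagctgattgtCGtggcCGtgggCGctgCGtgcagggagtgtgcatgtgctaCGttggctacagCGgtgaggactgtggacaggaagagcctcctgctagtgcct
E030030I06Rik summit, chr10:22150711-22150910, strand -: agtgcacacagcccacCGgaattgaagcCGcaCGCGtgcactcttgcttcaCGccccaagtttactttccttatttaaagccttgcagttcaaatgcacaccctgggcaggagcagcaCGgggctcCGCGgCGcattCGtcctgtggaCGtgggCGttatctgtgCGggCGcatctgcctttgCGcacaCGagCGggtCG
H60b and Raet1e summit, chr10:22159205-22159404, strand +: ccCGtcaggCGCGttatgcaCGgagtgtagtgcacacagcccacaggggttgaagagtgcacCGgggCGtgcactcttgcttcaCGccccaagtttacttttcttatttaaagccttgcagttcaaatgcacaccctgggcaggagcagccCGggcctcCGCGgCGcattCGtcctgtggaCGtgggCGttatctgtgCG
The Six2 summit held 1 CpG in 200 bases, against 21 before its start site. At Pitx1 the counts were 3 and 17. The summit of Six2 lay at -2546 bp from the nearest coding TSS, outside coding genes. That of Pitx1 lay at -1879 bp from the nearest coding TSS but in an intron, thus inside a coding gene. The summit of Wnt7b held 3 CpG and that of Wnt3a held 19, so members of 1 gene family differed. The Tnxb summit, in an exon, held 17. Tnxb went the other way, with 8.5 CpG per 100 bases at the summit and 2 around its nearest coding TSS. The last pair is shown because the windows resemble each other. E030030I06Rik and the second H60b and Raet1e region, on the same chromosome, shared an unbroken run of 48 bases, and no other pair of the 8 summit windows compared shared a run of more than 10 bases.

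The signal of a region was measured as its highest pileup, the number of extended reads over 1 base. So that libraries could be compared, it was brought to a common depth of 1000 reads per Mb. Over the 685 regions the mean scaled pileup of the 6 libraries had a median of 23.7 reads and ranged from 6.70 at Fzd9, which encodes a Wnt receptor, to 66.1 at H60b and Raet1e. The quartiles were 17.6 and 30.3. Within a region, the highest library exceeded the lowest by a median of 1.57 times. The order of the regions was similar in all libraries. Spearman's rho over the 685 regions ranged from 0.860 to 0.911 between pairs of libraries, a description only, since the regions share the reads of 1 library. The regions spanned a median of 1301 bp and were covered by peaks over a mean of 794.5 bp at the median region. Ranked by q-value within its own list, the median region stood at percentile 79.6 ± 7.04 (SD, n = 6 libraries). Together the regions held 20.7% ± 5.56 of the peaks of a library and 32.1% ± 4.27 of its covered bases.

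The local background that the peak caller estimated at these summits had a median of 8.50 ± 2.23 reads, which was 27.8 ± 3.69 times the genome-wide background (SD, n = 6). By group this ratio was 29.4, 30.4 and 33.0 for PBS and 24.9, 24.8 and 24.1 for CTX, so the groups did not overlap. The fold enrichment over that local background was 3.86 ± 0.0499 at the median region. It was 3.86 ± 0.0655 for PBS and 3.85 ± 0.0432 for CTX (SD, n = 3 each).

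The strongest region, at chr10:22157799-22158907, lay within 2000 bp of both H60b and Raet1e, whose products are ligands of the natural killer cell receptor NKG2D. Its scaled pileup was 71.0, 73.4 and 90.3 for PBS, and for CTX it was 55.1, 59.5 and 47.4. Thus every PBS library lay above every CTX library there. A second region of this pair, at chr10:22159139-22159998, had a mean of 56.6, and the neighbouring E030030I06Rik, at chr10:22149930-22151816, had a mean of 58.1. Over 10% of 31-base words occurred elsewhere in the reference chromosomes in 24 regions, these 3 among them, and over 50% in 6 regions. At these 3 the shares were 42.5%, 38.9% and 35.1%, whereas the median region had none (0%). Reads that map to more than 1 place had been removed, and the part of this in the pileup there was not tested.

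Six2, a homeobox factor that maintains nephron progenitors, had its region at chr17:85690118-85691314 with the summit at -2546 bp from the TSS. It reached 65.4, 54.5 and 83.4 in the PBS libraries and 39.1, 54.6 and 50.1 in the CTX libraries, so the groups overlapped narrowly. Pitx1, a homeobox factor of hindlimb identity, reached 68.5, 61.1 and 62.1 in the PBS libraries. Its CTX values were 48.1, 52.2 and 50.1, all below the PBS values. Pcdh1, which encodes a protocadherin of cell adhesion, had a mean of 60.7. Dio3, whose enzyme inactivates thyroid hormone, had a mean of 56.4.

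The region shared by Chat and Slc18a3, which encode the enzyme that makes acetylcholine and the transporter that loads it into vesicles, had a mean of 56.3. Wnt3a and Wnt7b, which encode secreted Wnt signals, had means of 54.9 and 53.1. Tnxb, which encodes the matrix protein tenascin-X, and Igsf21, which encodes a synaptic adhesion protein, completed the 12 strongest with 52.2 and 50.8. The plot of the 12 strongest regions shows that PBS and CTX values overlapped at Six2, Chat and Slc18a3, and Igsf21 and at no other of these regions. At the other 9 every PBS library lay above every CTX library, which held for 34.3% of the 1122 regions tested across the genome.

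**Figure D1:**
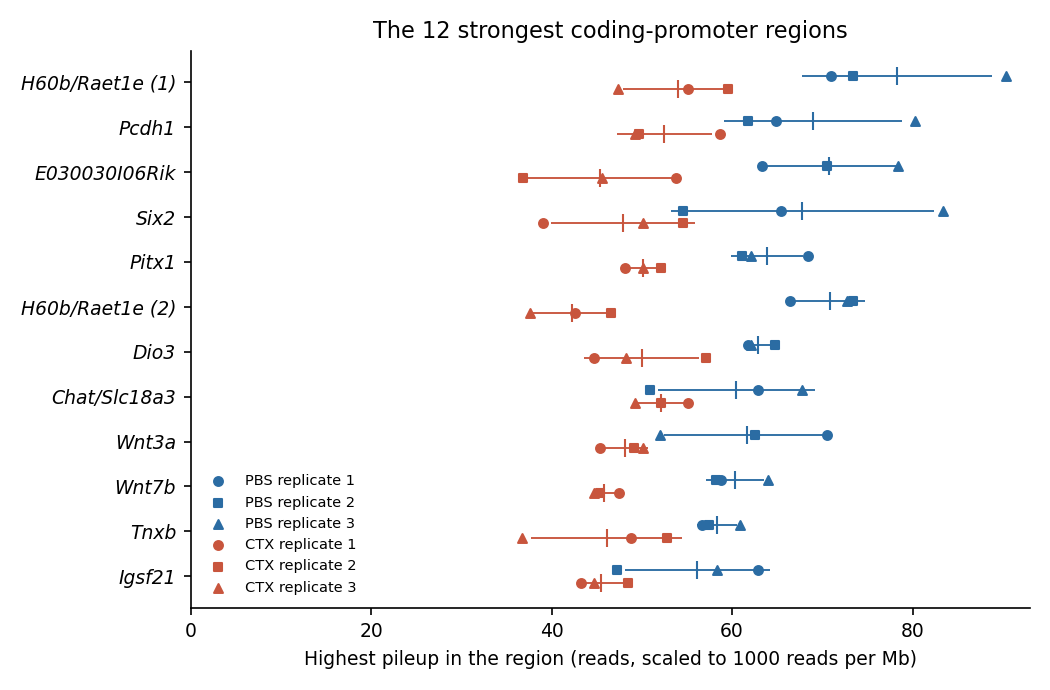
Highest pileup (reads, scaled to 1000 reads per Mb) of the 12 coding-promoter regions with the highest mean over 6 libraries. Blue symbols are PBS and red symbols CTX libraries, bars are the group mean ± SD (n = 3), and the strongest region, at H60b and Raet1e, runs from 47.4 to 90.3.

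The widest regions were not the strongest ones. The region at Lrrc26, an auxiliary subunit gene of a potassium channel, and Tmem210 was covered over 3082, 2080 and 2698 bp in the PBS libraries and over 1466, 1793 and 1200 bp in the CTX libraries. Dscaml1, a neural adhesion gene, followed with a mean of 2033 bp and Mroh5 with 2031 bp. Lingo1, a co-receptor gene of axon inhibition, was covered over 1965 bp and Vwc2, which encodes a secreted BMP antagonist, over 1942 bp. The forkhead factor Foxi3 and the neuronal splicing factor Rbfox3 had means of 1932 and 1905 bp. None of these regions was among the 12 strongest by pileup.

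The summit of a region was taken from the library with the highest scaled pileup. It was downstream of the nearest coding TSS in 483 of the 685 regions (70.5%), and the median signed distance over all of them was 474 bp. The downstream share was 57% in the 100 regions strongest by mean scaled pileup and 78% in the 100 weakest. Taken library by library, the share was 71.1% ± 0.146 for PBS and 70.7% ± 0.386 for CTX (SD, n = 3 each). Summits lay within 500 bp of the TSS in 238 regions (34.7%), and the region spanned a coding TSS in 336 (49.1%). The summit was in an intron in 318 regions, in an exon outside UTRs in 146, in a UTR in 91 and outside coding genes in 130. Of the 3087 promoter regions called in 1 to 5 libraries, 63.2% had the summit downstream and 16.2% spanned a TSS. These regions were shorter, with medians of 231 bp in those called in 1 library and 859 bp in those called in 5, and a longer region meets a TSS more readily. The summits of the 685 regions were most frequent in the first 500 bp (21.9%) and the next 500 bp (21.0%) of the gene.

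**Figure D2:**
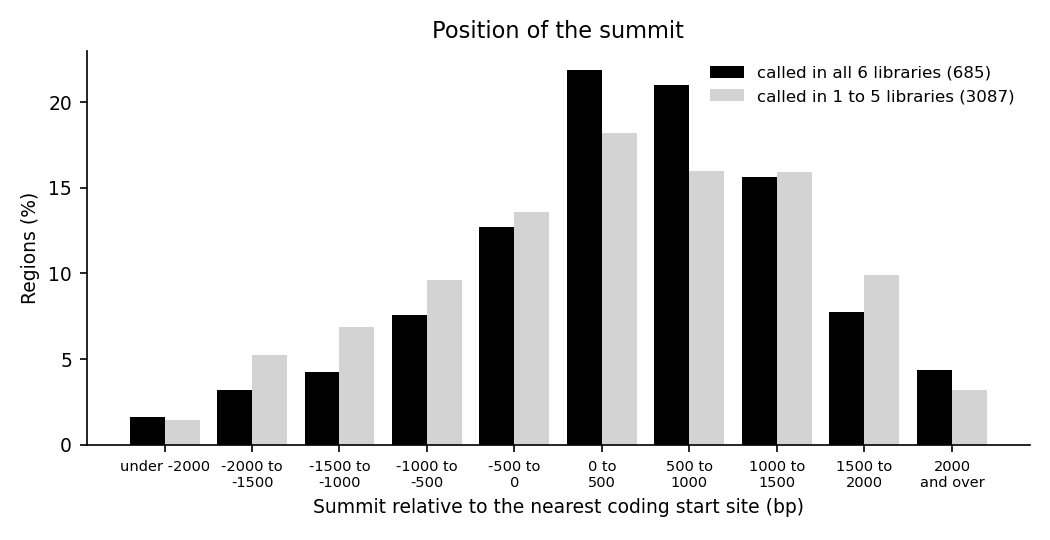
Share of regions (%) by the distance of the summit from the nearest coding start site (bp, negative upstream), for the 685 regions called in all 6 libraries (black) and the 3087 called in 1 to 5 (grey). The black bars peak between the start site and 1000 bp into the gene, with 21.9% and 21.0%.

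Peak cover and CpG density did not have their maximum at the same place. Around the 662 distinct TSS nearest to the summits, the density of CpG was highest 50 bp into the gene, at 8.51 per 100 bases. Peak cover was highest between 550 and 750 bp into the gene in all 6 libraries. It reached 51.1%, 40.8% and 48.2% of these TSS for PBS, whereas for CTX it reached 32.9%, 38.4% and 25.8%. At 50 bp it was lower in each library, for example 42.7% in PBS replicate 1 and 21.3% in CTX replicate 3. The flanks were also rich in CpG. At 950 bp into the gene there were 4.15 CpG per 100 bases, against 2.08 at the outermost TSS of all coding genes, and 950 bp upstream the values were 2.61 and 1.26.

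**Figure D3:**
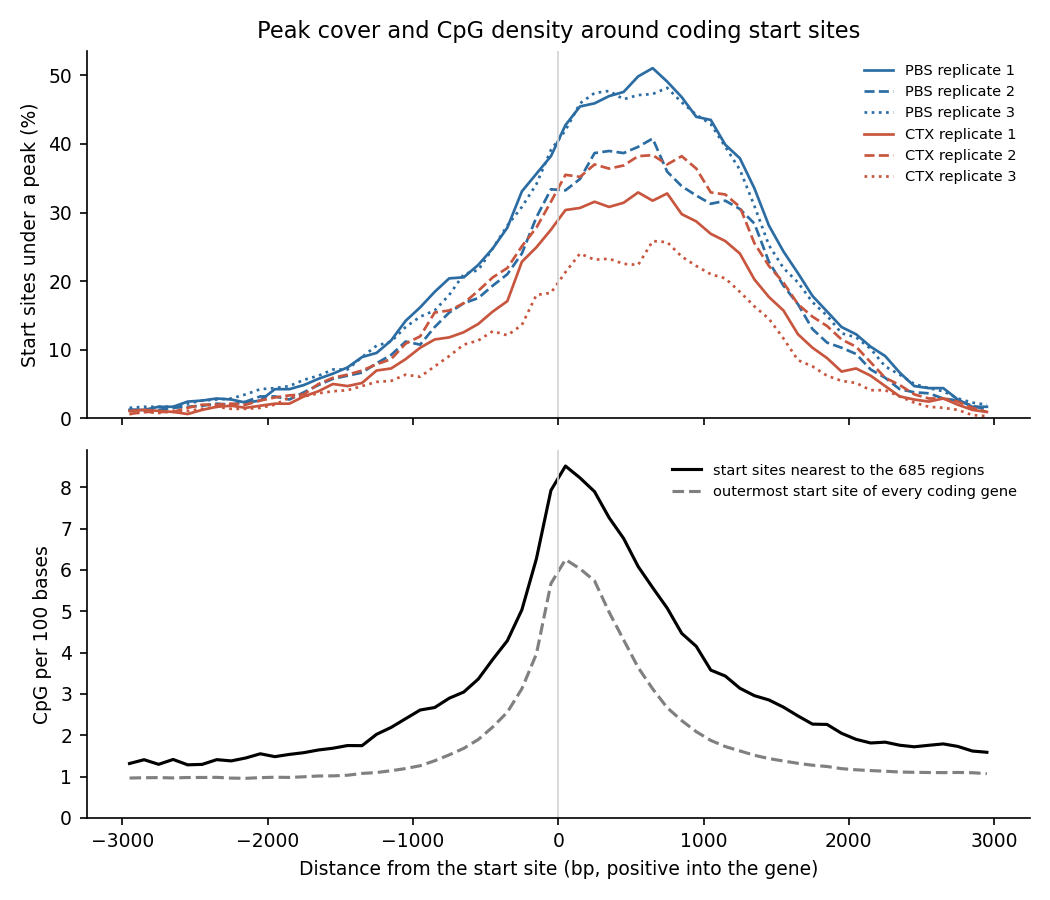
Upper panel: share (%) of the 662 nearest coding start sites that lie under a peak at each distance (bp), by library (blue PBS, red CTX). Lower panel: CpG per 100 bases in 100-bp bins around the same start sites (black) and around the outermost start site of all 21853 coding genes (grey, dashed), where CpG peaks at 50 bp while cover peaks at 550 to 750 bp.

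In a 200-bp window the summit held a median of 4 CpG per 100 bases and the nearest TSS 8. The summit had fewer CpG than the TSS in 476 regions (69.5%) and more in 174 (25.4%). In 447 regions the summit was over 500 bp from the TSS, and there the medians were 3 and 8.5. Around all coding genes CpG also fell with distance, from 6.25 per 100 bases at its highest to 2.08 at 950 bp into the gene. The part of distance in the difference was not tested. GC content was 60% at the median summit and 66% at the median TSS. The whole regions had a median GC content of 58.6% and a median ratio of observed to expected CpG of 0.537. Both were lower in promoter regions called in fewer libraries. The median GC content was 54.5%, 55.8%, 56.4%, 55.98% and 57.6% in regions called in 1, 2, 3, 4 and 5 libraries, and the CpG ratio was 0.331, 0.395, 0.443, 0.435 and 0.481, with a small step down from 3 to 4 libraries in both. The median length rose at each step, from 231 to 859 bp, so composition and length cannot be told apart here.

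The promoters themselves were compared with those of all coding genes over 1000 bp centred on the outermost TSS. The 668 genes had a median GC content of 60.7% and a CpG ratio of 0.647, against 54.9% and 0.561 for all 21853. A CpG-rich promoter, with a GC content of at least 50% and a CpG ratio of at least 0.6, was found at 393 of the 668 genes (58.8%) and at 45.1% of all coding genes. Among the 1696 genes whose promoter was called in 1 to 5 libraries only it was 54.8%. In the 300 bases from 250 before to 50 after the TSS, on either strand, the GC box (GGGCGG) was present at 58.4% of the 668 genes and 43.8% of all, the TATA box (TATAAA) at 7.78% and 12.6%, and the CCAAT box (CCAAT) at 36.7% and 38.97%. A match describes the sequence only, and the part of GC content in these differences was not tested.

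By function, 232 of the 668 genes belonged to at least 1 of the lists described here, which cover families of developmental regulators, signals, genes of excitable cells and others. Of 175 homeobox genes, 42 (24%) had a promoter region in all 6 libraries, against 3.06% of all coding genes. Six2, Pitx1 and Tlx1, a factor of spleen formation, led with mean scaled pileups of 57.9, 57.0 and 47.3. The list also held Otx1 and Otx2, Lhx1 and Lhx2, Dlx1, Dlx3 and Dlx5, Pdx1 and Nkx2-5. Of the Hox cluster genes in this list, which pattern the body axis, 5 of 39 (12.8%) had such a region, among them Hoxa10 (37.8) and Hoxb6 (37.6), while 27 of 39 had a promoter region in at least 1 library.

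In the lists, a gene is called marked when it had a promoter region in all 6 libraries. More genes had one in at least 1 library. These were 129 of 175 homeobox, 8 of 9 Pax, 12 of 17 T-box and 33 of 56 bHLH genes. For forkhead, Sox and secreted signal genes the counts were 18 of 44, 9 of 19 and 63 of 103, against 2364 of all 21853. Pax genes were marked in 3 of 9 cases (33.3%), Pax7 at 46.0, Pax6 at 34.3 and Pax8 at 30.8. T-box genes were marked in 4 of 17, with Tbx20 of the heart at 48.5, T of the early mesoderm at 38.1 and Tbx18 at 29.0. Of 56 bHLH genes 13 (23.2%) were marked, among them Olig3 (50.5), Ptf1a of the pancreas (47.3), Bhlha9 (43.7) and Myod1, the master factor of muscle. Forkhead genes followed with 8 of 44 (18.2%), led by Foxb1 (43.7), Foxi3 (38.96) and Foxl1 (36.3). Sox genes were marked in 3 of 19, Sox17 of the endoderm at 41.8, Sox21 at 29.4 and Sox10 of the neural crest at 27.8. Zinc-finger factors of development were marked in 13 of 93 (13.98%), led by Prdm16 (43.6), Prdm12 (43.1) and Fezf2 (40.7). These 7 lists together accounted for 86 of the 668 genes. They took up 40 of the 100 strongest regions and 2 of the 100 weakest, against 13.1% of all 685 regions.

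Among secreted signals, 25 of 103 genes (24.3%) were marked, led by Wnt3a, Wnt7b and Wnt7a (43.8). The Wnt signal gene Wnt5a carried 3 separate regions, and the list held the BMP ligands Bmp2, Bmp4, Bmp6 and Bmp7 as well as the BMP antagonists Nog and Chrd. Their receptors were marked in 4 of 36 cases (11.1%), with Fzd10 at 30.3, Ror2 at 29.0 and Fgfr3 at 19.9. Axon guidance genes were marked in 10 of 71 (14.1%), led by Sema5b (45.8), Ephb1 (37.4) and Ntng2 (36.97). Cadherins and protocadherins were marked in 8 of 101 (7.92%), with Fat3 at 27.4 and Cdh8 at 23.005 after Pcdh1.

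Genes of excitable cells formed another group, with 73 of the 668 genes. Potassium channels were marked in 20 of 94 cases (21.3%), led by Kcna2 (35.8), Kcnc4 (35.1) and Kcns1 (33.7). Sodium and calcium channels were marked in 6 of 41, with Scn8a at 27.2, Cacna1b at 26.5 and Cacna1e at 24.9. Neurotransmitter receptors were marked in 21 of 105 (20%), led by the glutamate receptor Grm4 (44.98), the GABA receptor Gabbr2 (39.7) and the NMDA receptor subunit Grin2a (37.8). Neuropeptides and their receptors were marked in 17 of 73 (23.3%), with Adcyap1r1 at 37.7, the somatostatin receptor Sstr1 at 37.0 and urocortin, Ucn, at 35.1. Synaptic proteins were marked in 9 of 70 (12.9%), led by Dlgap2 (41.1), Nrxn2 (35.3) and Lrrtm1 (33.8). These genes were spread over the range of strength, with 11 regions among the 100 strongest and 8 among the 100 weakest.

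Collagens were marked in 7 of 44 cases (15.9%), with Col2a1 of cartilage at 38.3, Col26a1 at 33.6 and Col13a1 at 32.3. Solute carriers, a large and mixed family, were marked in 15 of 371 (4.04%), led by Slc18a3, Slc22a3 (38.2) and Slc35d3 (31.3). Of 83 ribosomal protein genes, 46 genes of respiratory complex I, 39 proteasome genes and 327 vomeronasal receptor genes 0 had such a region, and of 1092 olfactory receptor genes 1 had one, Olfr94 (19.3).

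Of 12 granulosa cell genes, among them Fshr, Foxl2, Cyp19a1 and Amh, 0 had a promoter region in any library. The same held for 6 of 6 oocyte genes. These lists are short, and 89.2% of all coding genes had no promoter region in any library either. Of 5 Sertoli cell genes Dmrt1, a factor of testis fate, had one in all 6 libraries (20.8), and 2 had one in at least 1 library. Of 5 theca and stroma genes Pdgfra had one in all 6 libraries (20.9), and 3 had one in at least 1. Of 5 blood and 4 endothelium genes 0 had one in all 6 libraries, and 1 in each list had one in at least 1 library. Chromosome X held 3 of the regions, at Cdx4, Pcdh19 and Il1rapl2, which is 0.316% of its 948 coding genes against 2.098% to 4.52% on the autosomes.

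**Figure D4:**
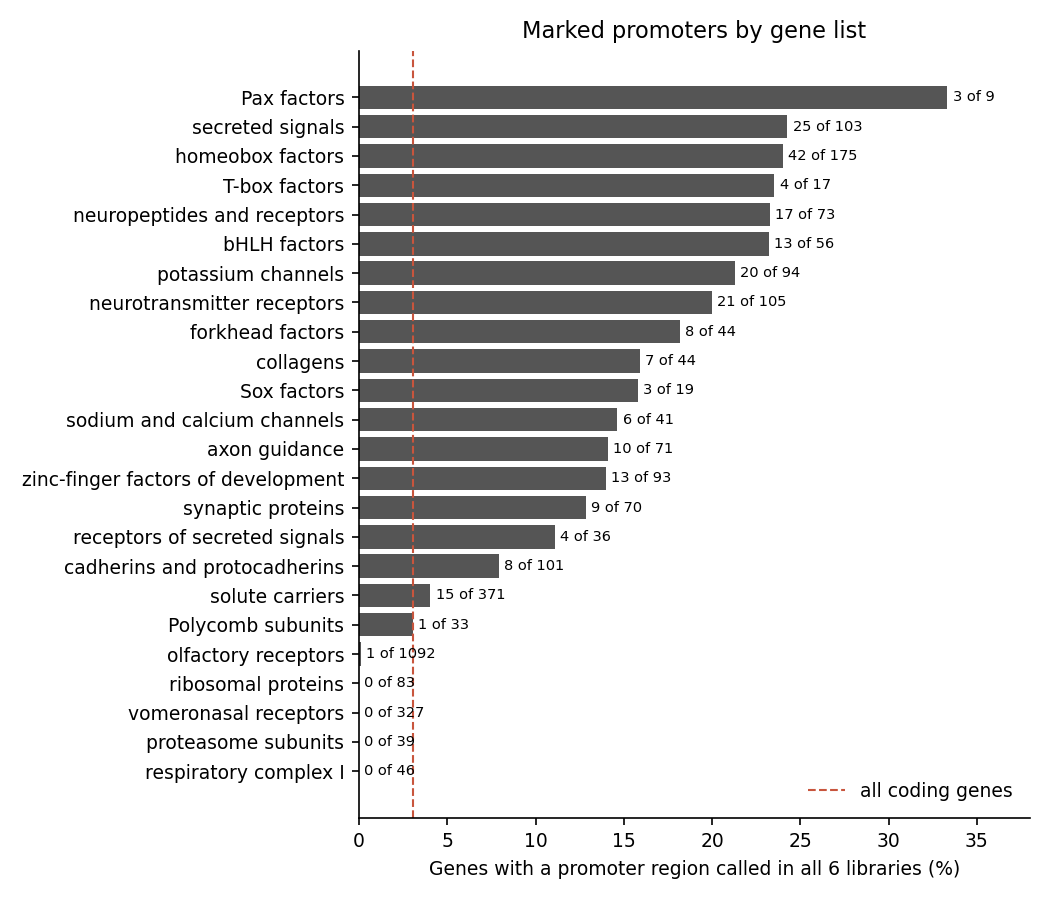
Share (%) of the protein-coding genes of each list that had a promoter region called in all 6 libraries, with the number of genes beside each bar. The dashed line is the share of all coding genes, 3.06%, and Pax, secreted signal and homeobox genes stand at 33.3%, 24.3% and 24%.

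At the limits of the rule members and non-members overlapped in strength, except that regions nearest to Gm10800 and Gm10801 lay far above every member (at most 66.1). The members farthest from a TSS were Tmem30b, Rnf207 and Pax7, at 1992, 1987 and 1975 bp, with mean scaled pileups of 27.6, 29.0 and 46.0. Just outside were the regions nearest to Amn, Nr2f2 and Gm10800, at 2009, 2021 and 2037 bp, with 33.1, 22.7 and 433.8. The members richest in repeats were at Prkcz, Wnt5a and Ngfr, with 42.5%, 36.0% and 34.5% soft-masked bases and pileups of 22.6, 27.6 and 34.0. Just outside were Gm10801, Plcb4 and Phf21a, with 63.0%, 70.1% and 76.3% and pileups of 444.9, 8.03 and 42.2. In number of libraries, 385 promoter regions were missed by a single library, which was CTX replicate 3 in 269 of them. Without that library 956 promoter regions met the rule.

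To compare the marked promoters between the groups, the scaled pileup was tested with limma on the log2 scale over the 1122 regions called in all 6 libraries with a recovered pileup, with Benjamini-Hochberg adjustment over all of them. The median promoter had a lower pileup after CTX, and so had the median of the other nuclear regions poor in repeats. The median scaled pileup was 24.5, 25.4 and 28.2 reads for PBS and 20.9, 21.5 and 21.5 for CTX, so the groups did not overlap. The means were 26.1 ± 1.92 and 21.3 ± 0.310 (SD, n = 3 each). The local background at these summits was also lower after CTX, and the median fold enrichment over it was similar in both groups. This fold cannot tell whether the signal changed, since its background is local and each region had to be called in every library. The median log2 ratio of CTX to PBS was -0.29 over the 685 regions and -0.26 over all 1122. By the test, 57 of the 685 were lower after CTX and 0 were higher (adjusted p under 0.05, limma). The rule needs a call in every CTX library, so a promoter that lost its call there was not among those tested. Of the 3087 promoter regions called in 1 to 5 libraries, the PBS libraries called 1931, 1124 and 1747. The CTX libraries called 776, 1163 and 304, so the groups overlapped, and depth differed between libraries. Over all 1122 regions 88, or 7.84%, were lower and 47, or 4.19%, were higher, so the share of lower promoters (8.32%) was near that background. The 330 other nuclear regions poor in repeats had a median log2 ratio of -0.27, with 31 lower and 6 higher. The 93 regions with at least 50% soft-masked bases had a median of 0.49, and 33 of them were higher. The 9 regions on contigs outside the assembled chromosomes had a median of 0.94, and 8 of them were higher. In such bulk libraries fewer marked cells, less mark per cell and a difference in scaling between libraries cannot be told apart. At an unadjusted p under 0.05, 232 of the 685 were lower and 1 was higher.

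The libraries were also centred on the median of all regions tested, which removes the shift of the median region but not the difference between the repeat-rich and the other regions. Then 3 of the 685 were lower and 1 was higher, against 0.267% lower and 4.72% higher over all regions. Without CTX replicate 1 the uncentred count of lower promoters fell from 57 to 8, without PBS replicate 3 to 13, without CTX replicate 3 to 18 and without CTX replicate 2 to 30. The called promoters had log2 ratios from -1.26 to -0.47. Against the 7.84% of all regions tested, they included 5 of the 44 homeobox regions, among them Irx2, Uncx and Otx1, 3 of the 8 forkhead regions (Foxb1, Foxi3 and Foxh1), 3 of 22 neurotransmitter receptor regions (Gabbr2, Drd5 and Adrb3) and 3 of 19 neuropeptide regions (Sstr1, Avp and Galr2). Potassium channels had 2 of 22, and bHLH factors 1 of 14, zinc-finger factors 1 of 14, synaptic proteins 1 of 12 and collagens 1 of 8. The called regions were 0 of 27 for secreted signals, 0 of 4 for their receptors, 0 of 15 for solute carriers, 0 of 10 for axon guidance, 0 of 8 for cadherins, 0 of 6 for sodium and calcium channels, 0 of 4 for T-box, 0 of 3 for Sox and 0 of 3 for Pax genes. After centring 0 of the regions of these lists were called. Of the 100 strongest regions 20 were called and of the 100 weakest 2, with median log2 ratios of -0.36 and -0.19. The mean scaled pileup was 35.0 to 66.1 in the strongest and 6.70 to 14.5 in the weakest, where relative counting error is larger. A weak region that fell further after CTX could also lose its call and leave the rule. The part of these limits in the difference was not tested. Over all 685 regions the median pileup before scaling was 42.7 ± 6.81 reads for PBS and 29.7 ± 5.51 for CTX (SD, n = 3 each).

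**Figure D5:**
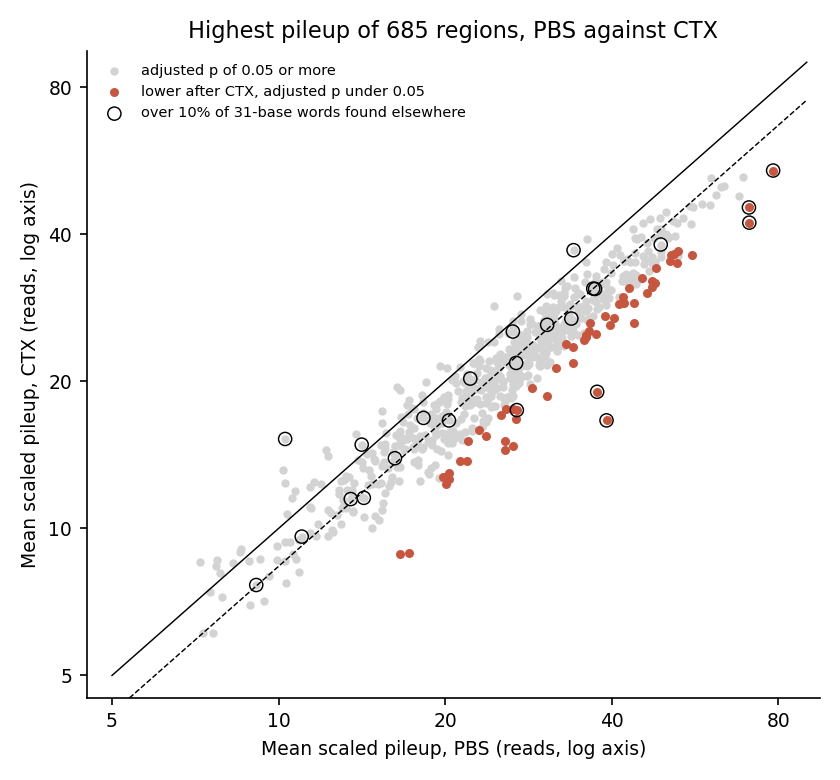
Mean scaled pileup (reads, log axes) of each of the 685 regions in the 3 PBS libraries (x) and the 3 CTX libraries (y). Red points are the 57 regions lower after CTX (adjusted p under 0.05), black rings the 24 regions with over 10% of 31-base words found elsewhere, the solid line equality and the dashed line the median ratio of all 1122 regions, along which most points lie.

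Every PBS library was above every CTX library at 266 of the 685 regions (38.8%, against 34.3% of all 1122 regions) and below at 1 (0.146%, against 5.61%). The largest difference was at H2-Q1, a class I major histocompatibility gene, at chr17:35320917-35322012. Its scaled pileup was 39.3, 38.5 and 39.5 in the PBS libraries and 20.9, 12.9 and 16.1 in the CTX libraries. The log2 ratio was -1.26 ± 0.18 (SE; limma, adjusted p = 0.000238). H2-Q1 had another member region, which is not described here. The class I genes H2-Q2, H2-Q10 and H2-T3 had log2 ratios of -0.11, -0.22 and -0.27, and none of these was called. Another H60b region, at chr10:22273305-22274272, read 37.3, 29.8 and 45.8 in the PBS libraries and 22.3, 17.8 and 17.0 in the CTX libraries, a log2 ratio of -0.97 ± 0.18 (SE; limma, adjusted p = 0.00165). The described H2-Q1 region and this H60b region lie in gene families with similar copies, and 29.8% and 32.1% of their 31-base words occurred elsewhere.

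Bcl2l11, which encodes the apoptosis activator BIM, was marked at -1522 bp from its TSS at low levels. It read 12.8, 17.5 and 21.3 in the PBS libraries and 9.07, 10.4 and 7.16 in the CTX libraries. This is a log2 ratio of -0.94 ± 0.24 (SE; limma, adjusted p = 0.016), and the adjusted p was 0.119 after centring. The call was lost without PBS replicate 3, CTX replicate 1 or CTX replicate 3, where the log2 ratio was -0.77, -0.96 and -0.79. Its pileups before scaling were 8 to 34 reads. At Tmem91 the PBS values were 17.4, 15.997 and 16.3 and the CTX values 9.07, 8.59 and 8.94, with a log2 ratio of -0.90 ± 0.20 (SE; limma, adjusted p = 0.00939, and 0.0796 after centring).

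The regions that passed after centring were H2-Q1, the H60b region just described and 1 of the 2 regions of Ltbp2, which encodes a latent TGF-β binding protein, in the lower direction. At this Ltbp2 region, at chr12:84875574-84876477 in an exon, PBS read 26.6, 26.2 and 27.0 and CTX 14.7, 13.5 and 16.1. None (0%) of its 31-base words occurred elsewhere. The other Ltbp2 region, next to it, read 24.0 to 26.1 in the PBS and 20.6 to 22.7 in the CTX libraries. In the upper direction there was 1 region, within 2000 bp of Aida and Brox, which read 11.2, 10.2 and 9.41 in the PBS libraries and 13.96, 16.6 and 15.2 in the CTX libraries. Its log2 ratio was 0.57 ± 0.21 (SE; limma, adjusted p = 0.0676, and 0.022 after centring). Of its words 24.5% occurred elsewhere, and its GC content of 43.5% was near the lowest of all members (43.2%). Of the 4 promoters called after centring, 3 thus belonged to the 24 regions in which over 10% of words were repeated, and their part in the result was not tested. No other non-overlapping region was higher after CTX. The next in order, Cadm4, one near Lemd1 and the second Ltbp2 region, had log2 ratios of -0.17, -0.18 and -0.18.

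Egr4, a zinc-finger factor that the study followed, was marked over its single promoter region at chr6:85511350-85513567, which had the highest GC content of all members, 71.3%. It read 22.99, 21.1 and 26.3 for PBS and 20.2, 18.4 and 20.6 for CTX, so every CTX library lay below every PBS library by a small margin. The log2 ratio was -0.25 ± 0.16 (SE; limma, adjusted p = 0.267), close to the median of all regions. The covered bases were 2197, 1283 and 1777 in the PBS libraries and 1256, 890 and 507 in the CTX libraries (limma, adjusted p = 0.254).

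Covered bases showed a lower median after CTX that did not separate the groups. The median region was covered over 1058, 806 and 1032 bp for PBS and over 622, 828 and 444 bp for CTX, with means of 965 ± 139 and 631 ± 192 bp (SD, n = 3 each). Here CTX replicate 2 lay above PBS replicate 2, and the lowest value was that of the shallowest library. The median log2 ratio of covered bases was -0.56 over the 685 regions and -0.46 over all 1131, and it turned to 0.030 over the 685 after centring. By limma 2 of the 685 promoters had fewer covered bases (0.292%, against 0.265% of all 1131 regions), and 0 had more (0% of all, and 0 of the 685 at an unadjusted p under 0.05). The called regions were upstream of Pax6, with 618, 492 and 553 bp in the PBS and 200, 218 and 211 bp in the CTX libraries, and at Etl4, with 618, 854 and 870 bp in the PBS and 200 bp in each CTX library (limma, adjusted p = 0.0282 for both). With any 1 of the 6 libraries left out 0 promoters were called. The shortest interval in the lists is 200 bp, so these values are at or near the floor. At Pax6 the scaled pileup itself was 35.1 to 38.8 in the PBS and 29.5 to 33.1 in the CTX libraries.

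The 5 mitochondrial regions that the rule also kept had scaled pileups of 18.9 to 102.5, and PBS replicate 1 was lowest at each of them.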

How the data were processed

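H3K27me3 CUT&Tag was measured in 6 libraries of mouse GCs, 3 PBS and 3 CTX. The authors aligned the reads to mm10 with BWA, kept uniquely mapped (MAPQ of at least 13) and de-duplicated reads, and called peaks in each library with MACS2 2.1.0 at a q-value of 0.05. Use of a control library is not given in the sources used here. The deposited lists hold, per summit, a MACS2 score, a fold enrichment (a ratio to a local background), the −log10 p-value, the −log10 q-value and the summit position.

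At each summit the pileup, as a whole number, and its background were recovered from the fold enrichment and the p-value (tolerance 0.001 on the −log10 scale). This was checked on simulated data. The most frequent lowest background gave the depth, with reads extended by 200 bp. A pileup carries counting error, and no spike-in is given in the sources used here. Of the 1131 regions called in all libraries, 9 had no recovered pileup in some library, none of them described here. Narrow peaks break up broad domains, so covered bases depend on the caller.

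TSS came from protein-coding transcripts of the GENCODE annotation of GRCm38, coordinates are 1-based, and GC content, CpG and soft-masked bases were read from that sequence. Repeated 31-base words were counted on either strand of the assembled chromosomes. Groups were compared with limma 3.58.1 in R 4.3.3, with a prior that follows the mean level, tested on simulated data. Replicate numbers did not pair the samples. Medians and shares over the regions have no p-value.

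The members, gene lists and tests were chosen with earlier results of these data known. Named regions were the 12 strongest, the 8 with most covered bases, the 4 most negative and 4 most positive log2 ratios among regions whose groups did not overlap, Egr4, up to 3 genes per list and 3 regions on each side of each limit. Pax6, Etl4, Wnt5a, Fzd9, the genes at which a list is illustrated beyond its first 3, and those counted on chromosome X were named after their values were seen. H2-Q2, H2-Q10 and H2-T3 were likewise named after their values were seen. The word count and the setting aside of mitochondrial regions were added after the data were examined. Some regions that this rule names are not reported here. Alternatives are in the closing section.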

Additional observations from a re-analysis of the deposited data

How the results depend on the processing

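The number of promoter regions called in all libraries was most sensitive to the q-value and to the shallowest library. A q-value of at most 1e-05 left 184 regions at 195 genes, with a median GC content of 58.9% and 71.7% of summits downstream. Leaving out 1 library and requiring the other 5 gave 677 to 956 regions at 657 to 892 genes, the highest without CTX replicate 3, with a median GC content of 58.4% to 58.9% and 70.5% to 71.5% of summits downstream. The GC content was 57.9% with peaks joined within 1000 bp, 58.9% with a TSS window of 1000 bp and 59.0% with equal peak numbers. The downstream share was 71.6% with joined peaks, 71.1% with the window of 1000 bp, 67.4% with the TSS of every transcript of a coding gene and 71.0% with a soft-masked share under 25%. Keeping the mitochondrial regions gave 690 regions at 677 genes.

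The median log2 ratio of scaled pileup over the regions was -0.036 after centring on all regions tested, -0.53 without scaling and -0.33 to -0.23 with 1 library left out. The count of lower promoters was 3 after centring, 7 without scaling, 28 with 1 common variance prior and 8 to 64 with 1 library left out. The count of higher promoters was 1 after centring, 1 with the common prior and 0 in every fit with 1 library left out. The median log2 ratio of covered bases turned to 0.030 after centring and was -0.74 to -0.34 with 1 library left out. The 2 calls of fewer covered bases became 0 after centring, 1 with the common prior and 0 in every fit with 1 library left out. The cause of these changes was not tested, except that a left-out library lowers the number of samples.

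Same-numbered samples did not deviate together, with correlations of 0.054, -0.157 and -0.025 for the pileup and 0.003, -0.13 and -0.07 for covered bases. With a replicate block the count of lower promoters was 37 and that of fewer covered bases 0. After centring, the log2 ratio of Egr4 was 0.0055, that near Lemd1 0.072 and that of Cadm4 0.083, each a change of sign. H2-Q1, the H60b region at chr10:22273305-22274272 and Ltbp2 kept their direction and an adjusted p under 0.05 in 11 of 11 alternatives each. Setting aside the 24 regions with over 10% of repeated words, chosen after seeing the data, left 51 lower promoters.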
